A study of Mus musculus with 6 samples.

Results

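The 10 genes described here encode the NF-kappaB transcription factor family and its inhibitors, and were chosen by gene symbol from 24424 genes in the deposited count table. They comprise 5 DNA-binding subunits (Rel, Rela, Relb, Nfkb1 and Nfkb2), 2 cytoplasmic inhibitors (Nfkbia and Nfkbie) and 3 nuclear IkappaB proteins (Nfkbid, Nfkbiz and Bcl3). All 10 matched a row in both deposited tables, and all 10 passed the filter on low counts. RNA sequencing had been done on sorted regulatory T cells, a CD4 lineage defined by Foxp3 that holds other immune cells in check, from spleen and peripheral lymph nodes of mice. KO EAE (n = 2 libraries) carried the strain label Bcl11bF/WT Foxp3YFP-Cre +/- and the genotype KO_EAE, where EAE is the usual name of experimental autoimmune encephalomyelitis, an induced inflammation of the central nervous system. KO (n = 2) carried the same strain label and the genotype KO, and was taken at steady state. WT (n = 2) carried the strain label Bcl11bF/F, with no Cre named, and was also taken at steady state. Bcl11b is a zinc finger transcription factor of T cells, and the series asks what its removal does to the transcriptome of regulatory T cells. The Cre is expressed from Foxp3, so deletion is aimed at Foxp3-expressing cells. The strain label of KO and KO EAE names 1 floxed and 1 wild-type allele of Bcl11b, whereas their genotype label names a knockout. The labels name no age, no sex and no way of inducing EAE, and no WT EAE library was analysed here. No label says that the replicates came from separate animals, so p-values measure only how far these samples lie apart, and that distance may be technical.

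NF-kappaB proteins bind DNA as dimers. At rest they are held in the cytoplasm by IkappaB proteins, and antigen receptor, co-stimulatory and TNF receptor signals free them by activating the IKK kinase complex. Rel (c-Rel), Rela (p65) and Relb carry transactivation domains, whereas Nfkb1 and Nfkb2 encode precursors that are processed to p50 and p52. c-Rel is known to be needed for regulatory T cells to form in the mouse thymus and for their effector state in the periphery, and the nuclear protein encoded by Nfkbid takes part in Foxp3 induction. Several genes of the family are themselves NF-kappaB targets, with kappaB sites in their promoters.

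RefSeq promoter windows (GRCm38.p6, from 250 bases before to 50 bases after a start site) were matched for 7 of the 10 genes; Relb, Nfkb1 and Nfkbiz were not matched. The windows of Rel, Nfkb2 and Nfkbid are printed because these were the genes called lower in KO cells in the count table. The Rel window is chr11:23770920-23771219 on the minus strand, that of Nfkb2 chr19:46304487-46304786 on the plus strand (the first of its 3 windows), and that of Nfkbid chr7:30422156-30422455 on the plus strand (1 of its 3 windows). Each reads 5′ to 3′ in the direction of the gene, and capitals mark matches to the 10-base kappaB consensus on either strand.
Rel: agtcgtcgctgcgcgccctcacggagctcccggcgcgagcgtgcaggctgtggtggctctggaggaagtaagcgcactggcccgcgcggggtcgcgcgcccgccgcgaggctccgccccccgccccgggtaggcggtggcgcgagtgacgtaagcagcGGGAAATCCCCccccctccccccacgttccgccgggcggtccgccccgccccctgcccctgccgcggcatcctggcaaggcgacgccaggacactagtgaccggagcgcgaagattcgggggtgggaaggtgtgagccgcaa
Nfkb2: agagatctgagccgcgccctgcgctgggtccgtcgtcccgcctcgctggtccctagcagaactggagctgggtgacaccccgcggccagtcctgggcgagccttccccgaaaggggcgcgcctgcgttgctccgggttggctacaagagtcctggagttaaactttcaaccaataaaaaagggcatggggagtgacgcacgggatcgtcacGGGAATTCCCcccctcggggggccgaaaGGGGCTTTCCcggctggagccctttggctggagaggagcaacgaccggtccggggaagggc
Nfkbid: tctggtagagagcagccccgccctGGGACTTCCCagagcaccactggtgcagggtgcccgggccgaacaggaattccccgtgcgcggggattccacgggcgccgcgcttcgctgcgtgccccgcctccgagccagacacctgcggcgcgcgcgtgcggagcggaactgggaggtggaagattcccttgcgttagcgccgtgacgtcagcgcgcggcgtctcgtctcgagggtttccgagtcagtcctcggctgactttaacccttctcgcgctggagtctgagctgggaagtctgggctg

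The kappaB consensus was found in 7 of the 11 windows of these genes and in 5 of the 7 genes that have one, namely Rel, Nfkb2, Nfkbid, Nfkbia and Bcl3. It was found in 5.8% of all 32851 windows and in 6.55% of 27025 genes. In Rel, 2 overlapping matches on the strand opposite to the gene, GGGATTTCCC and GGGGATTTCC, began at 92 and 91 bases before the start site. In the Nfkb2 window, GGGAATTCCC, which reads the same on both strands, began at 39 bases and GGGGCTTTCC at 11 bases before the start site. The other Nfkb2 windows, chr19:46305445-46305744 and chr19:46305680-46305979, overlap and share the same GGGACTTTCC. That match is therefore counted in both windows. The Nfkbid match, GGGACTTCCC, lay farther out, at 226 bases before the start site of the window printed. The other Nfkbid windows, chr7:30421481-30421780 and chr7:30423025-30423324, held no match. A match is a description of the letters in a window, and binding was not measured here.

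The count table held 14663542 to 16904312 reads per library. Bcl11b had 404 and 278 counts-per-million (CPM, after TMM scaling) in KO EAE, 371 and 370 in KO, and 420 and 425 in WT. Its log2 change in KO against WT was -0.19 ± 0.17 (SE; edgeR, adjusted p = 0.527). The counts cover the whole gene, and reads of single exons were not given. T cell markers were present in every library: summed over the 9 of 10 that matched, they reached 1702 to 1811 CPM in KO EAE, 1660.0 to 1801 in KO and 1790 to 1793 in WT, and none of the 9 was called in KO against WT by edgeR or DESeq2, or passed an unadjusted p under 0.05. The 8 regulatory T cell markers summed to 1008 to 1158 CPM in KO EAE, 1031 to 1092 in KO and 1932 to 2029 in WT, and 7 of the 8 fell in KO against WT. Foxp3 was at 149 to 163 CPM in KO EAE, 155 to 165 in KO and 206 to 211 in WT. The 12 myeloid markers summed to 1318 to 1693 CPM in KO EAE, 1518 to 1903 in KO and 254 to 301 in WT, and 10 of the 12 rose in KO against WT. The 10 B cell markers summed to 75.6 to 152 CPM in KO EAE, 87.1 to 140.5 in KO and 44.6 to 48.7 in WT, of which 1 rose in KO. The 8 NK cell markers summed to 196 to 359 CPM in KO EAE, 248 to 255 in KO and 91.6 to 100.2 in WT, of which 5 rose in KO. Of the 7 erythroid markers the 4 globin genes were at 0 in every library, and the other 3 summed to 18.0 to 31.8 CPM in KO EAE, 16.6 to 36.3 in KO and 2.27 to 3.44 in WT, and all 3 that were tested rose in KO. The other lists had no marker at 0 in this table. Of all genes tested in KO against WT, 9.41% rose and 3.46% fell, and 1 of 10 B cell markers lay near the first share. In KO EAE against WT 10 myeloid, 1 B cell, 5 NK cell and 3 erythroid markers rose and 6 regulatory T cell markers fell. There 7.41% of all genes rose and 1.95% fell. In KO EAE against KO edgeR called no marker of these lists. In that comparison 1 of 8 regulatory T cell, 2 of 12 myeloid and 2 of 8 NK cell markers passed an unadjusted p under 0.05, against 9.47% of all genes. DESeq2 called 2 of the 12 myeloid markers, against 1.24% of all genes. The regulatory T cell, myeloid, B cell, NK cell and erythroid sums thus differed between KO or KO EAE and WT, without overlap. They did so alongside the changes of Rel, Nfkb2 and Nfkbid given below, and the part of these cells in those changes was not tested. In bulk RNA, fewer cells of a type and less RNA per cell cannot be told apart.

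In the count table, Rel fell to 0.424 of its WT level in KO regulatory T cells at steady state. There Nfkb2 and Nfkbid fell less, and the other 7 genes of the family were not called. Of the 10 genes, 3 were called lower by edgeR at an adjusted p under 0.05, where 3.46% of the 14548 genes tested were called lower and 12.9% were called in either direction. All 10 log2 changes were below 0, as were 51.3% of those of all genes. In 9 of the 10, both KO libraries were below both WT libraries, as they were for 32.5% of all genes. The median log2 change of the 10 genes was -0.30, and that of all genes tested was -0.01. With DESeq2, 4 of the 10 were called lower (Nfkbiz in addition), against 5.01% of all genes. At an unadjusted p under 0.05, 7 of the 10 passed, against 28.4% of all genes. KO, WT and KO EAE share one estimate of the spread, and the comparisons below share libraries with this one. The fall of Rel was not seen in the normalized table, where its log2 change was -0.12 (limma, adjusted p = 0.881). Bcl11b was at -0.88 in that table (limma, adjusted p = 0.065) and at -0.19 in the count table (edgeR, adjusted p = 0.527).

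**Figure D1:**
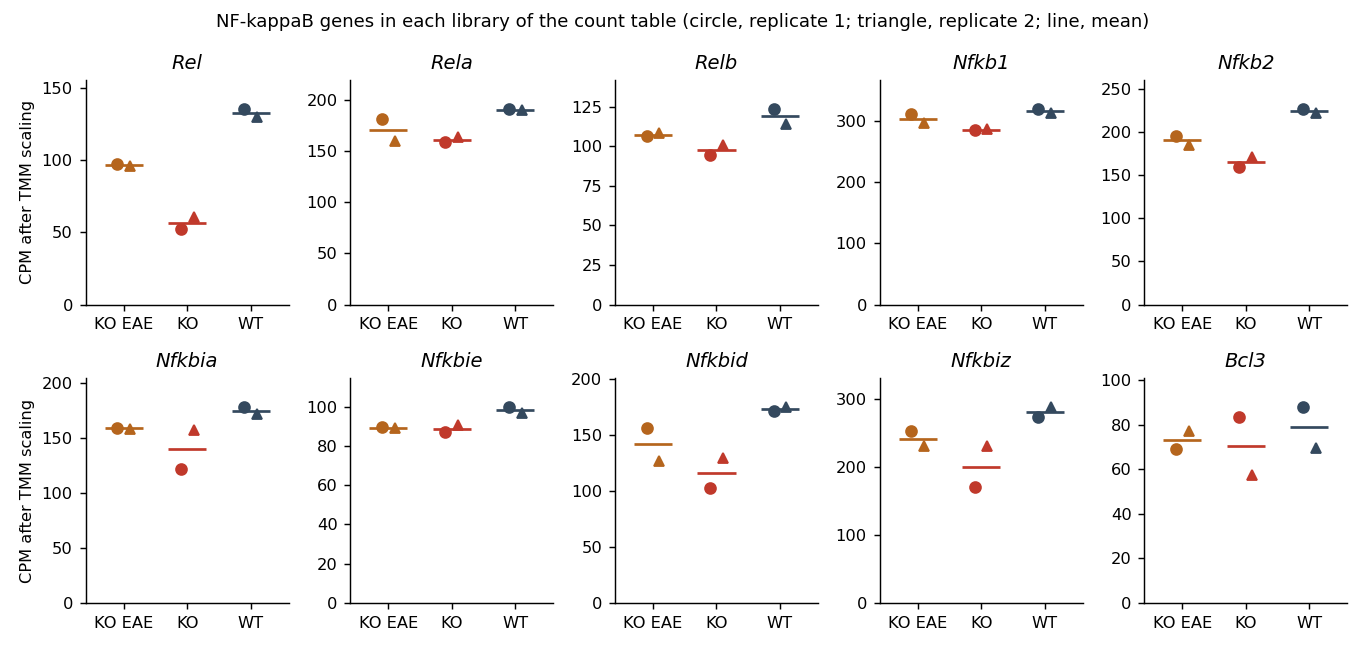
Level of each of the 10 genes in CPM after TMM scaling (y axis, from 0) in the 6 libraries of the count table, with KO EAE, KO and WT from left to right. Circles are replicate 1, triangles replicate 2 and the line is the group mean; Rel has its KO libraries at 52.3 and 60.5 CPM, below all others.

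Rel (c-Rel; chromosome 11, 23736847 to 23770970, mm10) was the subunit with the widest gap between groups. It had 97.4 and 96.3 CPM in KO EAE, 52.3 and 60.5 CPM in KO, and 136 and 130.3 CPM in WT, from 886 to 2166 reads per library. The 3 groups did not overlap: both KO libraries lay lowest, both KO EAE libraries in between, and both WT libraries highest. Rel averaged 56.4 ± 5.75 CPM in KO and 133 ± 3.67 CPM in WT (SD, n = 2 each), a log2 change of -1.24 ± 0.09 (SE; edgeR, adjusted p = 0.000444). The call held in all 6 fits that left out 1 library, with log2 changes of -1.34 to -1.13 and adjusted p of 0.000523 to 0.00525. In the Rel window printed above, the kappaB matches overlap within 11 bases.

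Nfkb2 (p100, processed to p52, the subunit of the alternative pathway; chromosome 19, 46304320 to 46312385) fell less. It had 195 and 185 CPM in KO EAE, 159 and 170.3 CPM in KO, and 226 and 222 CPM in WT, and again the groups did not overlap. The log2 change in KO against WT was -0.44 ± 0.07 (adjusted p = 0.0125), lower in both KO libraries. Without KO replicate 1, WT replicate 1 or WT replicate 2 the call was lost, with adjusted p of 0.0962, 0.104 and 0.0849. The annotation places Psd, a gene on the opposite strand, over 1196 exon bases of Nfkb2, and because strand use is not stated in the labels their reads cannot be told apart. Psd had 65.1 and 43.0 CPM in KO EAE, 35.5 and 42.5 CPM in KO, and 77.5 and 83.9 CPM in WT, and fell by 1.05 on the log2 scale in KO against WT (adjusted p = 0.0214).

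The other subunits were not called in KO against WT. Relb, the partner of p52 in the alternative pathway (chromosome 7, 19606217 to 19629438), had 94.3 and 101 CPM in KO against 123 and 114 CPM in WT, a log2 change of -0.28 ± 0.08 (adjusted p = 0.0637). Rela, the p65 subunit of the canonical dimer (chromosome 19, 5637483 to 5648130), had 159 and 164 CPM in KO against 191 and 190.3 CPM in WT, a log2 change of -0.24 ± 0.08 (adjusted p = 0.116). Nfkb1, the p105 precursor of p50 (chromosome 3, 135584655 to 135691547), had 285 and 287 CPM in KO against 319.6 and 314 CPM in WT, a log2 change of -0.15 ± 0.08 (adjusted p = 0.268). For each of these genes the KO libraries lay below the WT libraries without overlap. Without KO EAE replicate 1, which enters the shared estimate of the spread, Relb and Rela were called (adjusted p = 0.0369 and 0.0322), and without KO EAE replicate 2 Rela was (adjusted p = 0.0460). In the KO EAE libraries Relb had 106 and 108 CPM, Rela 181 and 160.3 CPM, and Nfkb1 311 and 297 CPM, all below WT.

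**Figure D2:**
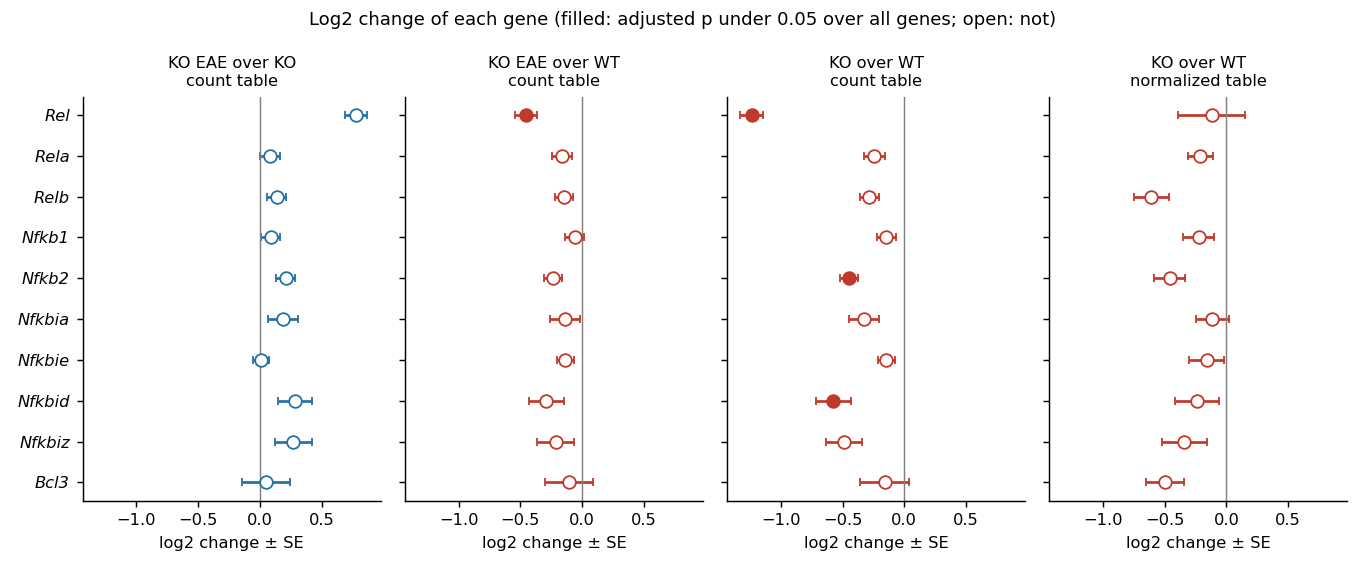
Log2 change of each of the 10 genes with its approximate SE in KO EAE over KO, KO EAE over WT and KO over WT (count table, edgeR), and in KO over WT in the normalized table (limma). Filled points have an adjusted p under 0.05; Rel is at -1.24 in the KO over WT panel of the count table and at -0.12 in that of the normalized table.

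The cytoplasmic inhibitors were not called. Nfkbia, the IkappaB-alpha that re-accumulates after each NF-kappaB response (chromosome 12, 55489410 to 55492647), had 159.8 and 159 CPM in KO EAE, 122 and 158 CPM in KO, and 178 and 172 CPM in WT. The KO replicates were far apart, with replicate 2 near the KO EAE libraries, and the log2 change in KO against WT was -0.32 ± 0.12 (adjusted p = 0.148). It ran from -0.52 to -0.15 when 1 library was left out, and was called without KO replicate 2 (adjusted p = 0.0325). Nfkbie, IkappaB-epsilon (chromosome 17, 45555703 to 45563169), had 89.4 and 89.3 CPM in KO EAE, 87.2 and 90.5 CPM in KO, and 99.7 and 96.7 CPM in WT. Its log2 change was -0.14 ± 0.07 (adjusted p = 0.229).

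Among the nuclear IkappaB proteins, which act at chromatin on promoters bound by p50 or p52, Nfkbid was called. Nfkbid (IkappaBNS; chromosome 7, 30421732 to 30428746) had 156 and 127 CPM in KO EAE, 103 and 129 CPM in KO, and 171 and 174 CPM in WT. KO replicate 2 lay just above KO EAE replicate 2, and all of them lay below WT. The log2 change in KO against WT was -0.57 ± 0.14 (adjusted p = 0.0495), close to the threshold. Leaving out any of the 4 KO and WT libraries ended the call, with adjusted p of 0.259, 0.0666, 0.175 and 0.183 without KO replicates 1 and 2 and WT replicates 1 and 2. Nfkbiz (IkappaB-zeta, a co-activator; chromosome 16, 55811375 to 55838899) had 253 and 231 CPM in KO EAE, 171 and 231 CPM in KO, and 274 and 288 CPM in WT. Its log2 change of -0.49 ± 0.15 was not called by edgeR (adjusted p = 0.0881) but was by DESeq2 (adjusted p = 0.0287). It ran from -0.72 to -0.28 when 1 library was left out, and edgeR called it without KO replicate 2 (adjusted p = 0.0275). Bcl3, which joins p50 or p52 dimers (chromosome 7, 19808462 to 19822770), had 69.0 and 77.3 CPM in KO EAE, 83.5 and 57.6 CPM in KO, and 87.8 and 69.8 CPM in WT. It was the gene of the family whose KO and WT libraries overlapped, and its log2 change was -0.16 ± 0.20 (adjusted p = 0.647).

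In KO EAE against KO, which asks how EAE changes KO cells, Rel was the gene of the family with the largest difference. Its level of 96.8 ± 0.786 CPM in KO EAE against 56.4 ± 5.75 CPM in KO (SD, n = 2 each) gave a log2 change of 0.78 ± 0.09, higher in both KO EAE libraries. edgeR did not call it over all genes (adjusted p = 0.267), whereas DESeq2 did (adjusted p = 4.66e-06). None of the 10 was called by edgeR, where 0.0137% of all genes, 2 in number, were called higher; 2 of the 10 (Rel and Nfkb2) passed an unadjusted p under 0.05, against 9.47% of all genes. With DESeq2 1 of the 10 was called, and it was higher, against 0.422% of all genes called higher and 1.24% in either direction. All 10 log2 changes were above 0, against 49.5% of those of all genes, with a median of 0.16, and in 6 of the 10 both KO EAE libraries were above both KO libraries, as for 17.0% of all genes. The next largest were Nfkbid at 0.28 ± 0.14, Nfkbiz at 0.27 ± 0.15 and Nfkb2 at 0.21 ± 0.07, and Nfkbie was at 0.01 ± 0.07. Without KO EAE replicate 1 the call of Rel was made (adjusted p = 0.0387), and in the other 5 fits it was not.

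In KO EAE against WT, which differ in genotype label and in EAE together, Rel was lower. It averaged 96.8 ± 0.786 CPM in KO EAE and 133 ± 3.67 CPM in WT (SD, n = 2 each), and fell by 0.46 on the log2 scale (SE 0.09; edgeR, adjusted p = 0.0284). It was the only gene of the 10 called, where 1.95% of all genes were called lower and 9.36% in either direction, and DESeq2 called it as well, with 4.44% of all genes called lower. All 10 log2 changes were below 0, as were 50.9% of those of all genes. In 9 of the 10, both KO EAE libraries were below both WT libraries, against 30.7% of all genes, and the median log2 change of the 10 was -0.15. Nfkb2 was at -0.24 ± 0.07 (adjusted p = 0.107), and Nfkbid at -0.29 ± 0.14 (adjusted p = 0.251). Without KO EAE replicate 1, Nfkb2 (adjusted p = 0.0470) and Rela (adjusted p = 0.0482) were also called. The call of Rel was lost without KO EAE replicate 2 (adjusted p = 0.0781), WT replicate 1 (0.193) or WT replicate 2 (0.138).

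The deposited normalized table, whose KO and WT columns were matched to the same sample titles but hold other values, gave a smaller change for Rel. Rel had normalized values of 662 and 702 in KO and 969 and 567 in WT, so the WT libraries lay on both sides of the KO libraries. The log2 change on the log2(value + 1) scale was -0.12 ± 0.27 (limma, adjusted p = 0.881), against -1.24 in the count table. None of the 10 was called by limma, where 0.181% of genes were called, and 3 (Relb, Nfkb2 and Bcl3) passed an unadjusted p under 0.05, against 13.1% of all genes. edgeR on the reads recovered from that table also called 0 of the 10, with the same 3 at an unadjusted p under 0.05, where it called 0.0979% of all genes. All 10 log2 changes were below 0, against 49.5% of all genes, and in 6 of the 10 both KO libraries were below both WT libraries, against 22.4% of all genes. The difference between the tables was not tested.

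In that normalized table the log2 changes farthest from 0 were those of Relb, Bcl3 and Nfkb2, none of them called. Relb had 2099 and 1863 in KO and 3251 and 2796 in WT, a log2 change of -0.61 ± 0.14 (limma, adjusted p = 0.168). Nfkb2 had 2777 and 2974 in KO and 3729 and 4189.8 in WT, a log2 change of -0.46 ± 0.13 (adjusted p = 0.22), and Psd was at -0.30 (adjusted p = 0.751). Bcl3 had 2383 and 1892 in KO and 2817 and 3195 in WT, a log2 change of -0.50 ± 0.16 (adjusted p = 0.273). In each of these genes the KO libraries lay below the WT libraries. The authors' deposited table of their own test lists Relb at -0.53 with an adjusted p of 0.0121 and Nfkb2 at -0.42 with an adjusted p of 0.0448, and calls 2 of the 10 genes, where it calls 1.65% of its genes lower and 3.35% in either direction. The authors' deposited table lists Rel at -0.11 with an adjusted p of 0.895 and Nfkbid at -0.18 with an adjusted p of 0.702. Bcl11b in that authors' deposited table is at -0.80 with an adjusted p of 7.91e-08. In the normalized table Bcl11b had 322 and 252 CPM in KO and 489 and 544 in WT. This is plain CPM, the recovered reads over their total without TMM scaling. The log2 change of Bcl11b, taken from the deposited normalized values, was -0.88 ± 0.14 (limma, adjusted p = 0.065). In plain CPM of the normalized table, myeloid markers summed to 625 to 749 in KO and 237 to 394 in WT. Regulatory T cell markers summed to 1170 to 1249 in KO and 1915 to 1966 in WT. T cell markers summed there to 6991 to 7129 in KO and 7015 to 7123 in WT. In the count table the T cell sums were 1660.0 to 1801 in KO and 1790 to 1793 in WT. The cause of that difference was not tested.

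Per kilobase of exon in the count table, Nfkbia was the most abundant transcript of the family and Rel the least, in each of the 3 groups. These levels were divided by the union of annotated exons, 12061 bases for Nfkb1 and 7466 for Rel, and the order depends on it. No such order was made for the normalized table. Nfkbia averaged 98.9 CPM per kilobase in KO EAE, 87.0 in KO and 109 in WT. Rel averaged 13.0 CPM per kilobase in KO EAE, 7.55 in KO and 17.8 in WT. In WT the order between them was Nfkbid at 73.7, Rela at 62.1, Nfkbiz at 56.0, Nfkb2 at 48.9, Nfkbie at 32.2, Bcl3 at 31.9, Relb at 30.6 and Nfkb1 at 26.3 CPM per kilobase. Bcl3 overlapped both Nfkbie and Relb, its neighbours in that order, and the other neighbours did not overlap. In KO the order had Rela at 52.5 ahead of Nfkbid at 49.5, where the ranges of these overlapped, as did those of Nfkbid with Nfkbiz, of Nfkbiz with Nfkb2, and of Bcl3 with Nfkbie and with Relb. In KO EAE the order was that of WT except that Bcl3 at 29.6 stood before Nfkbie at 29.4, where the ranges overlapped, as they did for Nfkbid and Rela.

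The share of Rel among the 5 subunits, per length, was 7.77% and 8.17% in KO EAE, 4.96% and 5.46% in KO, and 9.65% and 9.53% in WT. Its share was thus lowest in both KO libraries. Rela, the largest share, was at 35.2% and 33.0% in KO EAE, 36.6% and 35.9% in KO, and 33.1% and 33.8% in WT. Rel reads over Rela reads were 0.537 and 0.601 in KO EAE, 0.329 and 0.369 in KO, and 0.708 and 0.685 in WT, and these groups did not overlap. Nfkbia reads over Rela reads were 0.881 and 0.990 in KO EAE, 0.769 and 0.965 in KO, and 0.932 and 0.905 in WT, and these overlapped. In the normalized table the Rel share was 2.57% and 2.83% in KO and 3.05% and 1.79% in WT, with overlap. There the Rela share was 56.9% and 56.1% in KO and 51.0% and 53.3% in WT. Nfkbia reads over Rela reads were 2.198 and 2.355 there in KO and 2.472 and 1.831 in WT.

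**Figure D3:**
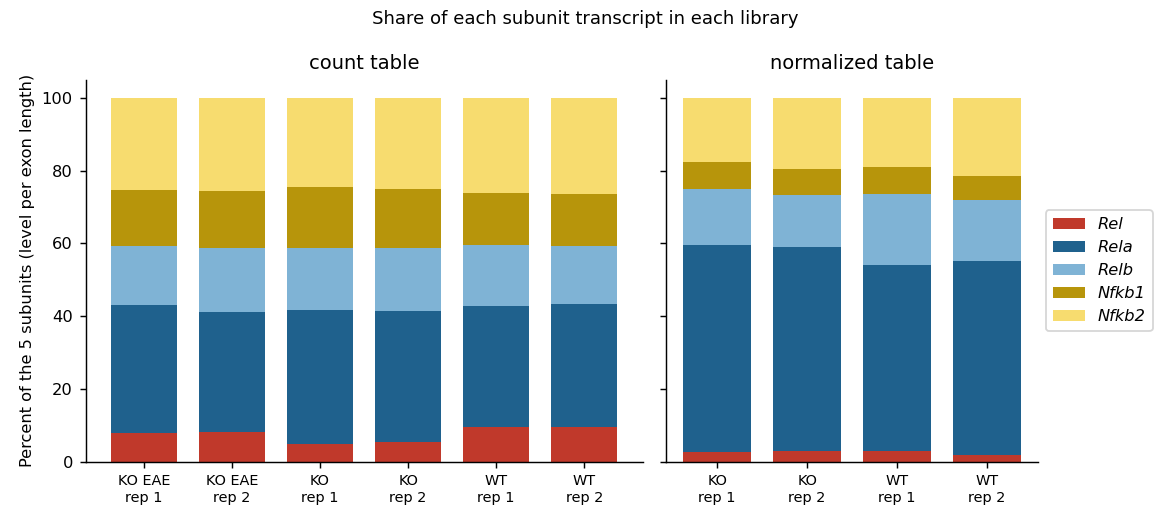
Percent of each of the 5 NF-kappaB subunits per exon length (stacked bars, y axis from 0 to 100%) in each library of the count table and of the normalized table, with KO EAE, KO and WT from left to right. The Rel share is 4.96% and 5.46% in KO libraries of the count table and 2.57% and 2.83% in those of the normalized table.

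Genes whose levels over the 6 libraries lay nearest to those of the called genes were found among 8906 genes, by the mean absolute difference of centred log2 CPM. For Rel these were Zbtb21 at 0.0545, Arid5b at 0.0669 and Trib1 at 0.0841. Zbtb21 had 116 and 101 CPM in KO EAE, 59.7 and 69.7 in KO, and 151 and 159 in WT, a similar course to that of Rel. For Nfkb2 they included Ipcef1 at 0.0206 and Nhlrc2 at 0.0235, and for Nfkbid they were Rc3h1 at 0.0306, Taf1d at 0.0360 and Taf4b at 0.0373.

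The other genes of the pathway were examined in 6 lists of 82 genes, of which 80 were tested (Il6 and Il12b had too few reads). In KO against WT 10 of the 80 rose and 9 fell, where 9.41% of all genes rose and 3.46% fell, with a median log2 change of -0.10 against -0.01 over all genes. In KO EAE against WT 8 rose and 1 fell, where 7.41% rose and 1.95% fell of all genes, with a median of -0.06. In KO EAE against KO edgeR called none of the 80, against 0.0137% of all genes, and the median was 0.06. At an unadjusted p under 0.05, 7 passed, against 9.47% of all genes. DESeq2 called 1, against 1.24% of all genes.

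Upstream of the family, the antigen receptor module has genes that link the T cell receptor to IKK. In KO against WT edgeR called 0 of its 5 genes, against 12.9% of all genes. At an unadjusted p under 0.05, 3 of the 5 passed, against 28.4% of all genes. DESeq2 called 1, against 16.8% of all genes, and the median log2 change was -0.12. The 11 genes of the IKK complex and its activators, which phosphorylate IkappaB, had a median of -0.11. Of these 11, 1 fell, where 3.46% of all genes fell and 12.9% were called in either direction. This was Tab3, a partner of the TAK1 kinase, with 56.4 and 56.7 CPM in KO against 72.0 and 77.2 CPM in WT and a log2 change of -0.40 ± 0.09 (adjusted p = 0.0436). Of the 12 adaptors and ubiquitin ligases, 1 rose and 1 fell, where 9.41% of all genes rose and 3.46% fell, with a median of -0.06. Irak4, the kinase of Toll-like and interleukin-1 receptor signals, rose by 0.44 ± 0.08 (adjusted p = 0.0171), and Traf6, an adaptor and ubiquitin ligase of the same signals, fell by 0.65 (SE 0.11; adjusted p = 0.0125). In the normalized table Irak4 was at -0.10 and Traf6 at 0.02. Leaving out any of the 4 KO and WT libraries ended the calls of Tab3 and Irak4, and that of Traf6 was lost without KO replicate 1, WT replicate 1 or WT replicate 2.

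Of the 9 genes of the alternative pathway, 2 rose and 1 fell in KO against WT, with a median of -0.12. Of all genes, 9.41% rose and 3.46% fell. Ltbr, the lymphotoxin-beta receptor, had 29.8 and 30.4 CPM in KO against 2.13 and 1.29 CPM in WT, a log2 change of 4.14 ± 0.27 (adjusted p = 0.000293). Tnfrsf11a (RANK) had 16.4 and 16.7 CPM in KO against 1.001 and 1.23 CPM in WT, a log2 change of 3.88 ± 0.31 (adjusted p = 0.000619). Both were also higher in KO EAE than in WT, by log2 changes of 3.71 and 3.27. Both receptors are known from myeloid cells, and the myeloid marker sums given above were also higher in the same libraries; the part of those cells was not tested. Birc2 (cIAP1), a ubiquitin ligase that limits NIK, fell by 0.51 (SE 0.12; adjusted p = 0.0460) in KO against WT, with 0.04 in the normalized table, and the call was lost without any of the 4 KO and WT libraries. The calls of Ltbr and Tnfrsf11a were kept in all 6 fits that left out 1 library.

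Of 10 further inhibitors and brakes, 2 fell in KO against WT, where 3.46% of all genes fell, with a median log2 change of -0.25. Zc3h12a (Regnase-1), an RNase that degrades inflammatory transcripts, Rel among its known targets in mouse T cells, had 83.0 and 107 CPM in KO against 185 and 199.5 CPM in WT. It fell by 1.02 on the log2 scale (SE 0.15; adjusted p = 0.00853). Nfkbib, IkappaB-beta, had 81.1 and 77.95 CPM in KO EAE, 62.4 and 66.1 in KO, and 83.8 and 82.9 in WT. It fell by 0.38 in KO against WT (SE 0.07; adjusted p = 0.0226), and its change in KO EAE against KO was 0.31 ± 0.07 (adjusted p = 0.449). In the normalized table Nfkbib was at -0.02 and Zc3h12a at -0.65, neither called. The call of Zc3h12a was lost without KO replicate 1 (adjusted p = 0.0588), and that of Nfkbib without any of the 4 KO and WT libraries (adjusted p up to 0.174). Tnfaip3 (A20), which edits ubiquitin to end the signal, was at -0.52 ± 0.21 (adjusted p = 0.175).

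Of 33 textbook target genes of NF-kappaB that were tested, 7 rose and 4 fell in KO against WT, with a median log2 change of 0.01. Of all genes, 9.41% rose and 3.46% fell. The myeloid marker sums given above were also higher in the KO libraries, and the part of those cells in the rises was not tested. Il2, the T cell growth factor that c-Rel is known to activate, had 5.51 and 6.14 CPM in KO against 0.563 and 0.674 CPM in WT, and rose by 3.22 ± 0.38 (adjusted p = 0.00337). Vcam1, an adhesion molecule of stromal cells and some macrophages, had 285 and 284 CPM in KO EAE, 288 and 343 in KO, and 50.05 and 66.1 in WT, and rose by 2.44 ± 0.16 (adjusted p = 0.000264). Vcam1 was also called in the normalized table, at 1.43 (adjusted p = 0.0486), whereas the other target genes named here for KO against WT were not: there Il2 was at 3.45, Ccnd1 at 1.67, Cd86 at 0.34, Irf4 at -0.32, Irf1 at -0.15, Lta at -0.07 and Bcl2l1 at 0.02. Ccnd1 (cyclin D1) rose by 2.46 ± 0.36 and Cd86, a co-stimulatory ligand of antigen-presenting cells, by 1.09 ± 0.18. Irf4, a factor of effector regulatory T cells and a known c-Rel target, had 149 and 149 CPM in KO EAE, 102 and 104 in KO, and 159 and 172 in WT, and fell by 0.69 (SE 0.07; adjusted p = 0.00193). Lta fell by 0.59, Irf1 by 0.39 and Bcl2l1 by 0.32, and leaving out any of the 4 KO and WT libraries ended these 3 calls. That of Ccnd1 was lost without KO replicate 2 or either WT library and that of Cd86 without KO replicate 2 or WT replicate 2, while Il2, Vcam1 and Irf4 kept theirs in all 6 fits. In KO EAE against WT 6 of the 33 rose and 1 fell, where 7.41% of all genes rose and 1.95% fell. Il2 led at 2.47, before Vcam1 at 2.29 and Ccnd1 at 1.85, with Ccl5 at 0.89 and Lta at -0.70. There Vcam1 kept its call in all 6 fits that left out 1 library, Ccl5 lost it without either WT library, Il2 and Ccnd1 without either KO or either WT library, and Lta in every fit but that without KO EAE replicate 1.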

How the data were processed

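Sorted regulatory T cells had been sequenced as RNA with the NEBNext Ultra II kit on a NextSeq500, per the labels' protocols. HISAT2, HTSeq, DESeq2 and mm10 are named per the submitters' processing notes; versions, annotation, counting mode and strand setting are not named there. The authors deposited 3 tables: raw counts of reads per gene in 6 libraries; a normalized signal per gene for KO and WT, values divided by size factors; and their KO to WT comparison, with a mean signal, log2 fold change, test score and p-values, per the file headers. The column headers of the count and normalized tables differ, and columns of both were matched to the same sample titles by group and replicate number. The values of KO and WT matched in this way differ between the tables, so tests stayed within a table.

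Rows naming no gene were left out: 25 of 24449 in the count table (at most 0.217% of a library) and 27 of 23420 in the normalized table (at most 0.284%), leaving 24424 and 23393 genes. The count test used edgeR 4.0.16 (R 4.3.3) with TMM scaling, a filter by filterByExpr (minimum count 10, total 15), glmQLFit and glmQLFTest over all 6 libraries with 1 coefficient per group, 3 residual degrees of freedom and Benjamini-Hochberg adjustment over 14548 genes at 0.05. The SE is approximate: the absolute log2 change over the root of F. The biological coefficient of variation was 0.178. Normalized values were tested with limma 3.58.1 on log2(value + 1), with a mean of at least 10 (12149 genes, 2 residual degrees of freedom); fold changes on that scale understate changes of low genes. Every value above 0 in that table was a whole multiple of 1 read (100.0% of values, tolerance 0.02 reads; 16884434 to 25335011 reads per library), so edgeR was also run on the recovered reads, an alternative chosen after seeing the data, which called 12 genes. DESeq2 1.42.0 was another alternative. The scripts were tested on simulated data.

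Groups came from the titles. Replicate numbers were not taken as pairs: deviations of same-numbered libraries correlated at 0.0124 for KO and WT, 0.197 for KO EAE and KO, and -0.0861 for KO EAE and WT, and at 0.0033 for KO and WT in the normalized table. Positions are 1-based from GENCODE M21, matched by symbol. Levels per length used the union of exons. The 6 pathway and 6 marker lists matched 146 genes in the count table, with 1 unmatched, and 142 in the normalized table by symbol and 3 by synonym, with 2 unmatched. All 10 genes, the called genes of each pathway list (at most the 4 largest each way), Nfkbib, and the 3 genes nearest to each called gene (mean of at least 20 CPM) were named, except 1 that is not reported here; Tnfaip3 and Psd were named after their values were seen. The 10 genes and the lists were chosen with earlier results of these data known.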

Additional observations from a re-analysis of the deposited data

How the results depend on the processing

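Rel kept its call in KO against WT under every alternative run on the count table; in the normalized table it was not called by limma or by edgeR on recovered reads (adjusted p = 0.881 and 0.866). Over the log2 changes of single genes, 640 of 738 alternative values kept their direction and side of the threshold and 12 reversed. Genes that were not called and stayed so are among those kept. The counts of called genes that follow are not among the 738. Fitting only the groups compared gave 5 of the 10 genes, 30 pathway genes and 3121 genes of all called in KO against WT, against 3, 19 and 1873. For KO EAE against KO, where 0, 0 and 2 were called, DESeq2 called 1, 1 and 167, and both the fit of only the groups compared and the replicate block called 0 of all genes. For KO EAE against WT, where 9 pathway genes and 1362 of all genes were called, DESeq2 called 21 and 2213, and the fit of only the groups compared called 782. In the normalized table, 22 genes were called, against 50 with a pseudocount of 10, 1 with no filter, 90 with the replicate block and 12 on recovered reads. Leaving out 1 library gave 1 to 5 of the 10 genes, 7 to 32 pathway genes and 846 to 3087 of all genes in KO against WT; 0 to 1, 0 to 1 and 0 to 313 in KO EAE against KO; 0 to 3, 3 to 33 and 603 to 3762 in KO EAE against WT; and 0 to 71 of all genes in the normalized table. Nfkbie reversed in KO EAE against KO to -0.016 with DESeq2 and to -0.017 with no filter, and ran from -0.028 to 0.042 without 1 library. Other log2 changes that reversed without 1 library were Bcl3 (-0.45 to 0.084 in KO against WT, -0.18 to 0.33 in KO EAE against KO, -0.26 to 0.087 in KO EAE against WT), Rela (-0.0051 to 0.17 in KO EAE against KO) and, in the normalized table, Rel (-0.51 to 0.27), Nfkbia (-0.30 to 0.074) and Nfkbid (-0.47 to 0.00016). With the replicate block, which the labels do not show to pair libraries, 2 of the 10 genes were called in KO against WT: Rel at -1.24 (adjusted p = 0.00137) and Nfkb2, with Nfkbid lost (adjusted p = 0.0752). Nfkbid was also lost with no filter (adjusted p = 0.0613). The cause of these differences was not tested. With 2 libraries a group, intervals around single log2 changes are wide, and floors and reads cover counting error only.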

Other observations

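Within the KO group, 9 of the 10 genes were higher in replicate 2 than in replicate 1, all but Bcl3, as were 53.4% of all genes. The log2 ratio of replicate 2 over replicate 1 ran from -0.54 for Bcl3 to 0.44 for Nfkbiz, with a median of 0.10. In KO EAE 2 of the 10 were higher in replicate 2, against 48.5% of all genes, with ratios from -0.30 for Nfkbid to 0.16 for Bcl3. In WT 2 of the 10 were, against 48.9% of all genes, with ratios from -0.33 for Bcl3 to 0.07 for Nfkbiz. In the normalized table, 6 of the 10 were higher in replicate 2 of KO, against 48.5% of all genes. There 3 of the 10 were higher in replicate 2 of WT, against 50.1% of all genes, and Rel had a ratio of -0.77 in WT.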
